A study of Mus musculus with 24 samples.

Results

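The comparison is between macrophages derived from mouse induced pluripotent stem cells (iPSC-derived macrophages) after 12 days and after 6 days of co-culture. It rests on 3 libraries titled iPSC Macrophage Day 12 Yes and 3 titled iPSC Macrophage Day 06 Yes, where Yes marks co-culture, so 6 of the 24 RNA-seq libraries of the series were compared. The series also holds iPSC-derived macrophages at day 0, without co-culture, and at day 3, and macrophages derived from bone marrow at the same 4 times, with 3 independent replicates per group according to its design text. Both groups compared here were co-cultured and came from the same source, so they differ in the time spent in co-culture, which is also time in culture. The labels give no strain, genotype, stem cell line or clone, add no treatment, and do not name the cells with which the macrophages were co-cultured.

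Macrophages of the brain and of other tissues take on part of their gene expression from the tissue around them, and microglia, the macrophages of the brain parenchyma, are recognised by genes such as P2ry12, Tmem119 and Fcrls. Macrophages at the borders of the brain carry a different set, with Siglec1, Folr2, F13a1 and Mrc1 among them. Macrophages also switch on fast transcriptional programmes: immediate early genes, which need no new protein to be transcribed, and inflammatory genes under NF-kB and related factors.

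The 6 libraries held 7945459 to 11805478 counts each and had at least 1 count for 16265 to 18151 genes. Each level is in CPM, read counts divided by the scaled size of the library, listed for replicates 1, 2 and 3 in that order. Each change is a log2 fold change with a standard error (SE) derived from edgeR's quasi-likelihood test. This SE is the absolute log2 fold change divided by the square root of the test's F statistic, since the test itself reports none. A gene is said to rise or fall where its Benjamini-Hochberg adjusted p-value was below 0.05, with 15000 genes tested. Library correlations within these groups ran from 0.921 to 0.939, against 0.944 to 0.962 in the bone marrow-derived groups of the same days. Differences in counts between 2 replicates were also measured as chi-square per degree of freedom, which weighs highly expressed genes most. It ran from 38.6 to 139 here and from 6.39 to 20.6 in those bone marrow-derived groups, so the iPSC-derived replicates differed more. The label was checked against markers of its cell type, and the summed level of 22 general macrophage genes was between 22160 and 45766 CPM in each of the 6 libraries. In these bulk libraries, fewer cells of a type and less RNA per cell cannot be told apart.

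From day 6 to day 12 the iPSC-derived macrophages gained transcripts of osteopontin (Spp1, log2 fold change 2.50 ± 0.40 SE, n = 3 against 3). The AP-1 subunits Fosb (3.66 ± 0.50), Fos and Jun, the phosphatase Dusp1 and the receptors Tlr4, Cd14, Fpr1 and C5ar1 rose too. So did 4 of 18 tested border-associated macrophage genes, Siglec1 (1.70 ± 0.21) and F13a1 among them. The cells lost transcripts of the integrin Itgax (CD11c, -3.18 ± 0.39), the tetraspanin Tspan13, the iron transporter Slc11a1 and the lectin Clec7a. Of the genes named here, Fos, Dusp1, F13a1, Tlr4, Cd14 and Clec7a were not called in every fit that left out 1 library. In all 111 genes rose, 0.74% of those tested, and 75 fell, 0.5%, so that 1.24% were called in either direction. Of the 111, 74 changed at least 2-fold, and of the 75, 44 did. The median log2 fold change over all tested genes was -0.03, and 13.3% of them had an unadjusted p below 0.05. Each count of gene list members below is to be read beside these shares over all tested genes.

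These counts depend on which libraries enter the fit. The fit pooled the spread over all 24 libraries, among them the bone marrow-derived ones, whose day 6 and day 12 replicates differed less. With the 12 iPSC-derived libraries alone 5 genes were called, namely Siglec1, Fosb, Itgax, Eepd1 and Plpp1, and with the 6 libraries compared none was called by the same edgeR test, while 862 of 12603 genes had an unadjusted p below 0.05. Day 12 replicate 2 was the highest of the day 12 libraries for 78 of the 111 genes that rose and replicate 3 was the lowest for 91. Without day 12 replicate 2, 40 genes were called, and without day 12 replicate 3, 484 were. Without replicate 1 of day 12, 78 genes were called, without replicate 1 of day 6, 111, and without replicate 2 of day 6, 97. With no scaling factors 79 genes rose and 90 fell, so 46.7% of calls were higher at day 12 in place of 59.7%.

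**Figure D1:**
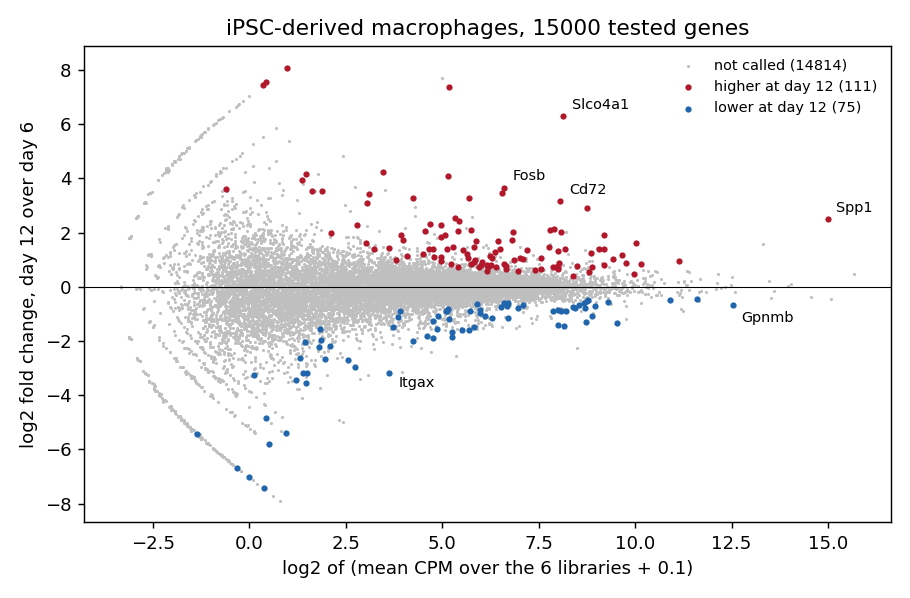
The change of each tested gene from day 6 to day 12 (log2 fold change, y axis) against its mean level over the 6 libraries (log2 of CPM + 0.1, x axis). Red points are the 111 genes that rose, blue points the 75 that fell and grey points the remaining genes. Spp1 is the called gene with the highest mean CPM, which is not scaled to gene length, and Slco4a1 is a called gene with a log2 fold change of 6.30.

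In total 27 genes, 18 higher and 9 lower, were called again each time 1 of the 6 libraries was left out, and every other call lost its place in at least 1 of those 6 fits. Siglec1 (sialoadhesin, a receptor for sialylated ligands on resident macrophages; chr2:131069220-131086765, mm10) held 55.2, 32.5 and 36.1 CPM at day 6 and 127, 148 and 127 CPM at day 12. All 3 day 12 libraries lay above all 3 day 6 libraries, and replicates 1 and 3 of day 12 were nearly level (log2 fold change 1.70 ± 0.21 SE, adjusted p = 0.00017). Itgax (the CD11c subunit of complement receptor 4; chr7:128129547-128150657) went the other way, from 22.5, 25.2 and 18.6 CPM to 2.64, 1.14 and 3.54 CPM. The highest day 12 library, replicate 3, was far below the lowest day 6 library (log2 fold change -3.18 ± 0.39 SE, adjusted p = 0.00017). Tspan13, a tetraspanin of cell membranes, fell from 40.7, 36.6 and 50.97 CPM to 5.63, 13.2 and 15.6 CPM (log2 fold change -1.89 ± 0.26 SE, adjusted p = 0.00066). Its groups did not overlap, with replicate 1 the lowest at day 12.

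The other genes of this group were Slc11a1, Fosb, Eepd1, Naip5, Jun, C5ar1, Clec4n, Fpr1, Il7r, Spp1, Cst7, Slco4a1, Cd72, Folr2, Ccl8 and C1qa, all named below, and 8 that lie outside the rule for named genes and are given because they were in this group. Of those 8, the genes that rose were Slamf9 (a leukocyte surface receptor, log2 fold change 1.92 ± 0.28, adjusted p = 0.00084), the phosphate transporter Slc20a1 (1.45 ± 0.22, adjusted p = 0.0012), the lectin Clec4a1 (1.40 ± 0.21, adjusted p = 0.0012), the tumour necrosis factor family ligand Tnfsf9 (3.10 ± 0.51, adjusted p = 0.0023) and the thioredoxin-binding Txnip (1.01 ± 0.19, adjusted p = 0.008). The genes that fell were the immune checkpoint receptor Vsir (-0.79 ± 0.13, adjusted p = 0.0031), the endosomal GTPase Rab7b (-1.16 ± 0.20, adjusted p = 0.0041) and Rap1gap, a GTPase-activating protein of Rap1, with 67 counts over the 3 day 6 libraries and 1 over the 3 day 12 libraries, a scaled ratio of 73.3 with an exact 95% interval of 12.7 to 2939 that covers counting error only.

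Immediate early genes rose as a group of 8 of 26 tested members, against 0.74% of all genes, and none fell. DESeq2 called 11 higher and 0 lower, and 15 members had an unadjusted p below 0.05 in edgeR, a level reached by 13.3% of all tested genes. Their median log2 fold change was 1.01, against -0.03 over all genes, and 23 of the 26 were above 0. Upstream regions of 4 of the called members, each holding a motif match, are shown first, to compare members that change together. The sequences are the 250 bases before the RefSeq start site on the gene's own strand (GRCm38.p6), and capitals mark matches to the cAMP response element (CRE, TGACGTCA) in Btg2 and Dusp1, to the CArG box bound by serum response factor in Zfp36, and to the NF-kB motif in Fosb. The windows are chr1:134079156-134079405 for Btg2, chr17:26508473-26508722 for Dusp1, chr7:28379229-28379478 for Zfp36 and chr7:19310046-19310295 for Fosb, all on the minus strand.
Btg2: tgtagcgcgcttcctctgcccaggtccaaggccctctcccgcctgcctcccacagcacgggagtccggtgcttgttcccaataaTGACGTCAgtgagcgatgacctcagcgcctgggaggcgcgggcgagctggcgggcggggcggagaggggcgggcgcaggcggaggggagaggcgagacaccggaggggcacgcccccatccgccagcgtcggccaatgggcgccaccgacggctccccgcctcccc
Dusp1: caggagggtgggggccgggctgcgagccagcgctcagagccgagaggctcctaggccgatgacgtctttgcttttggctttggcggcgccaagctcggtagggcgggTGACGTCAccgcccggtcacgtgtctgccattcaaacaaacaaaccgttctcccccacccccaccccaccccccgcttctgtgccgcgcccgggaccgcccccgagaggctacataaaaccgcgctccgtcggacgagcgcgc
Zfp36: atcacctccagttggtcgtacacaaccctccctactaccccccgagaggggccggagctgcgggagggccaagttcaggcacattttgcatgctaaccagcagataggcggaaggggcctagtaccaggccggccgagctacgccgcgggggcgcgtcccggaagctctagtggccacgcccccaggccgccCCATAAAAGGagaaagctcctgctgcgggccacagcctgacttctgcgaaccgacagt
Fosb: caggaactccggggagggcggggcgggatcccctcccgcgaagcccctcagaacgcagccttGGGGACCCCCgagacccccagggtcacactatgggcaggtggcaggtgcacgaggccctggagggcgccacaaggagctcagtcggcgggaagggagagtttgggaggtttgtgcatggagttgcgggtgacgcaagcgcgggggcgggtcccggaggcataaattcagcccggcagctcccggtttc

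All 8 called members had a RefSeq promoter. Those of Jun, Junb and Klf2, not shown, held no match to any motif searched here. On either strand of these 250 bases, 2 of the 8 held a CRE, against 1.55% of 32851 mouse promoters. The CArG box was found in 1 of the 8, against 1.47% of all promoters, and the NF-kB motif in 2 (Fos and Fosb), against 7.25%. Matches to the AP-1 motif TGANTCA, which 6.75% of promoters hold, and to the core of the interferon-stimulated response element GAAANNGAA, held by 7.13%, were found in 0 of the 8. A match describes letters in the window and is not a measured binding site. Only full matches within these 250 bases were counted, so variants of a motif and sites farther upstream were not searched.

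Fosb, a subunit of the AP-1 transcription factor (chr7:19302696-19310051, mm10), had 15.3, 16 and 11.3 CPM at day 6 and 156, 318 and 62.7 CPM at day 12. The lowest day 12 library, replicate 3, was still above the highest day 6 library (log2 fold change 3.66 ± 0.50 SE, adjusted p = 0.00084). Jun, another AP-1 subunit, had 90.7, 78.9 and 84.5 CPM and then 316, 572 and 181 CPM, again with replicate 2 highest, replicate 3 lowest and no overlap (log2 fold change 2.07 ± 0.31 SE, adjusted p = 0.0015). Fos, its common partner, went from 489.9, 558 and 483 CPM to 1500.3, 2229 and 955 CPM in the same order (log2 fold change 1.61 ± 0.31 SE, adjusted p = 0.012). Dusp1, a phosphatase that switches off MAP kinases, had 93.9, 121 and 87.8 CPM at day 6 and 753, 1311 and 223 CPM at day 12. The day 12 libraries lay far apart from each other and all above day 6 (log2 fold change 2.92 ± 0.60 SE, adjusted p = 0.022). Klf2, a transcription factor of quiescent leukocytes and endothelium, was at 2.502, 0.744 and 1.07 CPM and then at 20.3, 21.7 and 4.65 CPM (log2 fold change 3.43 ± 0.68 SE, adjusted p = 0.012), low at day 6 in each library.

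Btg2 (an antiproliferative gene, 1.90 ± 0.45, adjusted p = 0.043), Zfp36 (tristetraprolin, which destabilises cytokine mRNAs, 1.39 ± 0.29, adjusted p = 0.021) and Junb (1.25 ± 0.25, adjusted p = 0.014) were the remaining called members, named here because they complete the count. The day 12 values of Btg2 were 848, 1689 and 239.9 CPM, and that of replicate 3 lay below the day 6 mean of 248 ± 58.9 CPM (SD, n = 3). Nr4a1 (log2 fold change 0.84 ± 0.51 SE, adjusted p = 0.5) and Atf3 (log2 fold change 1.34 ± 0.38 SE, adjusted p = 0.097) did not pass the test, and for each of these replicate 3 of day 12 was at or below the day 6 libraries, at 6.07 CPM for Nr4a1 and 171 CPM for Atf3. Over the 26 tested members replicate 3 was the lowest day 12 library for 23 and replicate 2 the highest for 16. The summed level of the 28 listed genes was 2562 to 3540 CPM at day 6 and 4044 to 12280 CPM at day 12. Replicate 3 had the lowest sum at both days, and also at day 0 and day 3. Without day 12 replicate 2, 2 members were called (Jun and Fosb), without day 6 replicate 1, 4, and without day 12 replicate 1, day 6 replicate 2 or day 6 replicate 3, 5 each. Day 12 replicate 3 left out, 14 were called. With the 12 iPSC-derived libraries alone 1 was called (Fosb). With the 6 libraries alone edgeR called 0.

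Means at the earlier times are given as a description, with no test. Fosb was at 7.95 ± 2.903 CPM at day 0 and 3.69 ± 1.54 at day 3 (SD, n = 3), Jun at 214 ± 81.4 and 63.7 ± 11.05, and Dusp1 at 394 ± 242 and 36.8 ± 24.1. The mean levels of Jun and Dusp1 were lower at day 3 and at day 6 than at day 0, where no co-culture was present, and that of Fosb was higher at day 12 than at each earlier time.

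**Figure D2:**
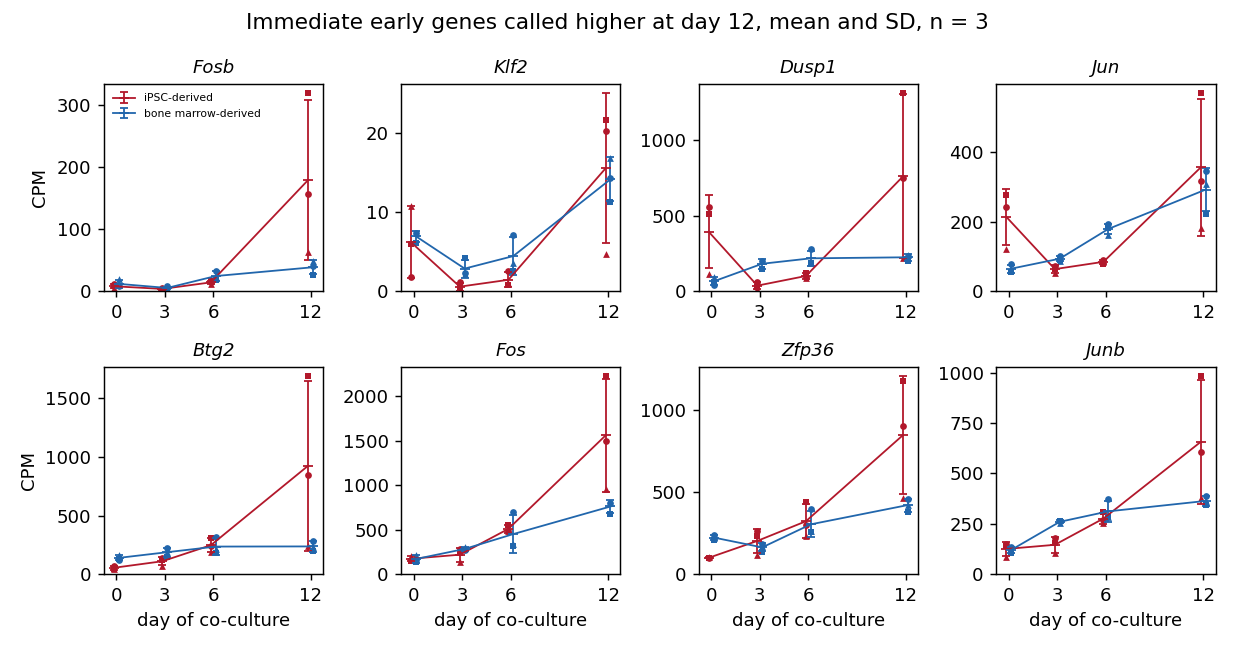
Levels (CPM, y axis) of the 8 immediate early genes that rose, by day of co-culture (x axis), in iPSC-derived (red) and bone marrow-derived (blue) macrophages. Points are libraries (circle, square and triangle for replicates 1, 2 and 3), lines join means and bars are SD, n = 3; in the iPSC-derived cells replicate 2 is the highest and replicate 3 the lowest library at day 12 in each panel.

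Among chemokine ligands, which attract leukocytes, 4 of 21 tested members rose and 1 fell, against 0.74% and 0.5% of all tested genes. Their median log2 fold change was 0.59. Ccl12, a ligand of Ccr2, had 7.51, 3.47 and 20.6 CPM at day 6 and 62.6, 41.6 and 52.5 CPM at day 12, without overlap (log2 fold change 2.29 ± 0.53 SE, adjusted p = 0.034). Cxcl2, a neutrophil attractant, was close to the detection limit at day 6 with 0.375, 0.372 and 0.879 CPM and had 7.55, 10.04 and 2.53 CPM at day 12 (log2 fold change 3.55 ± 0.76 SE, adjusted p = 0.022). Ccl8 was at 0 in day 6 replicates 1 and 2 and at 0.781 CPM in replicate 3, and had 7.91, 2.56 and 3.74 CPM at day 12 (log2 fold change 3.94 ± 0.74 SE, adjusted p = 0.0098). Ccl6 (0.91 ± 0.21, adjusted p = 0.028) rose with replicate 3 of day 12 at 48.8 CPM, inside the day 6 range. Ccl5 fell from 5.88, 1.98 and 11.9 CPM to 0.719, 1.23 and 1.11 CPM (-2.68 ± 0.63, adjusted p = 0.038). Ccl2 (2.17 ± 0.67, adjusted p = 0.14), Ccl3 (0.26 ± 0.27, adjusted p = 0.75) and Ccl4 (0.59 ± 0.36, adjusted p = 0.5) did not pass the test. Leaving out 1 library at a time left 1 to 6 of these ligands called higher, and 1 each without day 6 replicates 1 and 2 and day 12 replicates 1 and 2.

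Of 28 tested NF-kB and inflammatory genes 4 rose and 1 fell (median log2 fold change 0.22), against 0.74% and 0.5% of all tested genes. Il1b, the cytokine interleukin 1 beta, had 5.75, 2.73 and 3.42 CPM at day 6 and 27.4, 169.8 and 4.35 CPM at day 12 (log2 fold change 4.09 ± 0.98 SE, adjusted p = 0.048). Day 12 replicate 2 was far above the other libraries and replicate 3 lay within the day 6 range. The call of Il1b was lost without replicate 2 (log2 fold change 2.01) and without each other library but day 12 replicate 3. Il1rn, which encodes the antagonist of the interleukin 1 receptor, had 1.501, 2.11 and 3.32 CPM and then 15.7, 14.2 and 4.45 CPM, without overlap (log2 fold change 2.28 ± 0.48 SE, adjusted p = 0.02). Tnf (1.21 ± 0.30, adjusted p = 0.045) and Socs3, a feedback inhibitor of cytokine signalling (2.43 ± 0.57, adjusted p = 0.041), rose, and Nfkb2, which encodes the p100 precursor, fell (-0.64 ± 0.15, adjusted p = 0.032). Leaving out replicate 1 or replicate 2 of either day, edgeR called 0 of these 28 genes in either direction. With no scaling factors Il1b and Tnf were not called. DESeq2 on all libraries called 6 higher and 1 lower.

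The lipopolysaccharide receptor Tlr4 had 78.7, 69.1 and 85.5 CPM at day 6 and 162, 188 and 111 CPM at day 12 (log2 fold change 0.98 ± 0.17 SE, adjusted p = 0.0054), and its co-receptor Cd14 133, 98.8 and 88.3 CPM and then 363, 802 and 136 CPM (log2 fold change 2.02 ± 0.42 SE, adjusted p = 0.021). In both, day 12 replicate 2 was highest and replicate 3 lowest, and the groups did not overlap. These were the 2 called members among 18 tested Toll-like receptors and adaptors (median 0.09). Fpr1, a receptor for formylated peptides, had 14.5, 6.697 and 14.4 CPM and then 83.4, 73.4 and 49.3 CPM (log2 fold change 2.53 ± 0.40 SE, adjusted p = 0.0027), and C5ar1, the receptor for the complement fragment C5a, 470.2, 485 and 537 CPM and then 1181, 1438 and 763 CPM (log2 fold change 1.18 ± 0.19 SE, adjusted p = 0.0015). Clec4n, the lectin receptor dectin-2, went from 55.04, 28.3 and 71.4 CPM to 191, 163 and 161 CPM (log2 fold change 1.73 ± 0.27 SE, adjusted p = 0.0019). C1qa, a subunit of the complement protein C1q, went from 1892, 935 and 1731 CPM to 2969, 2758 and 3129.7 CPM, with day 6 replicate 2 the lowest library (log2 fold change 0.96 ± 0.19 SE, adjusted p = 0.012). Of 19 tested complement genes 2 rose (C1qa and C5ar1) and 1 fell (Itgax), against 0.74% and 0.5% of all tested genes, and the median log2 fold change was 0.48. All 3 of these calls, and those of Fpr1 and Clec4n, were made again with each library left out, while Tlr4 and Cd14 were not called without day 12 replicate 2, nor Cd14 without day 6 replicate 2 or 3.

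Of 18 tested border-associated macrophage genes 4 rose and none fell, where 0.74% of all tested genes rose and 0.5% fell. Their median log2 fold change was 0.37, and DESeq2 called 3 higher and 0 lower. In edgeR 5 of the 18 had an unadjusted p below 0.05, against 13.3% of all tested genes. Besides Siglec1, the folate receptor gene Folr2 rose from 16.01, 8.43 and 16.6 CPM to 39.3, 38 and 31.97 CPM (log2 fold change 1.41 ± 0.27 SE, adjusted p = 0.0089). F13a1, the catalytic subunit of coagulation factor XIII, had 4.13, 40.4 and 2.83 CPM at day 6 and 216, 176 and 127 CPM at day 12 (log2 fold change 3.47 ± 0.78 SE, adjusted p = 0.035). Day 6 replicate 2 stood about an order of magnitude above the other day 6 libraries, and F13a1 was called in only 2 of the 6 fits that left out a library, with log2 fold changes from 2.99 to 5.65 over the 6. Cbr2, a carbonyl reductase, had 2 counts over the day 6 libraries and 31 over the day 12 libraries, a scaled ratio of 14.2 with an exact 95% interval of 3.60 to 122. The mannose receptor Mrc1 (1298, 568 and 2415 CPM at day 12) did not pass the test (0.63 ± 0.32, adjusted p = 0.42). Replicate 3 was there the highest day 12 library and replicate 2 the lowest, the reverse of the order seen for immediate early genes. In the fits without day 12 replicate 2 and without day 6 replicate 1, 2 members of this list were called higher, and with no scaling factors Cbr2 was not called.

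Spp1 (osteopontin, a secreted phosphoprotein; chr5:104435118-104441050) was the called gene with the largest share of the libraries. It had 10890.4, 9308 and 9579 CPM at day 6 and 48289.8, 103984 and 16139 CPM at day 12 (log2 fold change 2.50 ± 0.40 SE, adjusted p = 0.0045). The day 12 libraries differed from each other by more than replicate 3 differed from day 6, and the groups did not overlap. As a share of all counts Spp1 made up 1.07, 0.945 and 0.936% at day 6 and 4.45, 9.30 and 1.61% at day 12. With Spp1 left out of the counts, 177 genes were called in place of 186, a setting chosen after seeing the data.

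Spp1 is also counted among genes of disease-associated microglia, a state of microglia near pathology. Of 26 tested members of that list 2 rose and 3 fell, against 0.74% and 0.5% of all tested genes. The median log2 fold change was -0.28, so the list did not move in one direction. In edgeR 16 of the 26 had an unadjusted p below 0.05, a level reached by 13.3% of all tested genes. DESeq2 called 3 higher and 5 lower. Cst7, which encodes the protease inhibitor cystatin F, rose from 1.75, 1.24 and 2.05 CPM to 5.75, 5.97 and 8.599 CPM (log2 fold change 1.99 ± 0.35 SE, adjusted p = 0.005). Clec7a, the beta-glucan receptor dectin-1, fell from 417, 514 and 189 CPM to 180.0, 183 and 58.6 CPM (log2 fold change -1.41 ± 0.33 SE, adjusted p = 0.035). Its highest day 12 library was just below its lowest day 6 library. Gpnmb, a lysosomal membrane glycoprotein, fell from 5839, 8168 and 7822 CPM to 4545, 4780.2 and 4241 CPM (log2 fold change -0.69 ± 0.16 SE, adjusted p = 0.034), and Itgax was the third member to fall. Apoe (0.47 ± 0.18, adjusted p = 0.24), which encodes a lipid carrier, and the lipid receptor gene Trem2 (-0.20 ± 0.19, adjusted p = 0.72) did not pass the test. Leaving out 1 library at a time left 2 to 4 members higher and 1 to 4 lower.

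Of 30 tested homeostatic microglial genes none rose and 2 fell, where 0.74% of all tested genes rose and 0.5% fell. Their median log2 fold change was -0.09. DESeq2 called 1 higher and 2 lower. In edgeR 7 of the 30 had an unadjusted p below 0.05, a level reached by 13.3% of all tested genes. Mef2c, a transcription factor of microglia, fell from 630.2, 694 and 548 CPM to 392, 338 and 406 CPM (log2 fold change -0.72 ± 0.14 SE, adjusted p = 0.0099), and Entpd1, the ectonucleotidase CD39, from 318, 463 and 275 CPM to 189, 135 and 249 CPM (log2 fold change -0.88 ± 0.20 SE, adjusted p = 0.027). In neither did the groups overlap, and without day 12 replicate 2 neither was called. Tmem119 had 30.02, 37.3 and 40.7 CPM at day 6 and 97.6, 135 and 62.8 CPM at day 12, without overlap, but missed the threshold (log2 fold change 1.45 ± 0.38 SE, adjusted p = 0.068). It was called without day 12 replicate 3, with a log2 fold change of 1.69.

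P2ry12, a purinergic receptor of microglia, had 73.4, 109.8 and 63.95 CPM and 84.1, 59.3 and 123 CPM (0.11 ± 0.25, adjusted p = 0.91), with overlapping groups. Fcrls (0.28 ± 0.25, adjusted p = 0.69), the fractalkine receptor Cx3cr1 (-0.59 ± 0.37, adjusted p = 0.53), Olfml3 (0.23 ± 0.30, adjusted p = 0.81), the receptor Csf1r (0.19 ± 0.18, adjusted p = 0.7) and Gpr34 (-1.14 ± 0.52, adjusted p = 0.35) overlapped in the same way. Gpr34 was called, lower, when day 12 replicate 3 was left out, with a log2 fold change of -2.01. Sall1, a transcription factor that defines microglia in the brain, was close to the detection limit with 1.25, 1.36 and 0.683 CPM and 0, 4.26 and 4.35 CPM, and Siglech had 0.5004, 0.124 and 0 CPM at day 6 and 0 in each day 12 library. The summed level of the 30 homeostatic genes was 15404 to 17345 CPM at day 6 and 13616 to 17562 CPM at day 12.

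Genes of iron handling, uptake and degradation moved in both directions. The iron transporter genes Slc11a1, of phagosomes, and Slc40a1 (ferroportin), the cellular iron exporter, were the 2 members that fell of 15 tested, and none rose. Of all tested genes 0.5% fell and 0.74% rose. DESeq2 called 1 member higher and 2 lower, and 5 had an unadjusted p below 0.05 in edgeR, against 13.3% of all tested genes. Slc11a1 went from 606, 679 and 626 CPM to 322, 211 and 370.0 CPM (log2 fold change -1.08 ± 0.15 SE, adjusted p = 0.00072), and Slc40a1 from 392, 558 and 316 CPM to 144, 64.2 and 253 CPM (log2 fold change -1.46 ± 0.34 SE, adjusted p = 0.04). Slc11a1 was called with each library left out, and Slc40a1 was not. Of 30 tested phagocytosis receptors and effectors 4 rose and 2 fell. Those that rose were Cd14, the integrin subunit Itgav, the GTPase Rac2 (0.81 ± 0.16, adjusted p = 0.01) and the C-type lectin Cd93 (1.19 ± 0.25, adjusted p = 0.015), and those that fell were Clec7a and Mfge8, a bridge to phosphatidylserine on dying cells (-0.75 ± 0.17, adjusted p = 0.023). The apoptotic cell receptor Mertk did not pass the test (-0.39 ± 0.18, adjusted p = 0.33).

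Of 42 tested lysosomal genes 1 rose and 2 fell, with a median log2 fold change of 0.01. The palmitoyl-protein thioesterase Ppt1 rose (0.74 ± 0.15, adjusted p = 0.012), while the hexosaminidase subunit Hexa (-0.50 ± 0.11, adjusted p = 0.024) and the saposin precursor Psap (-0.45 ± 0.10, adjusted p = 0.029) fell. Psap had 3457, 3876 and 3432 CPM at day 6 and 2724, 2399 and 2739 CPM at day 12, a narrow spread in which each day 12 library was below each day 6 library. Among 23 cytokine receptors 2 fell and none rose, against 0.5% and 0.74% of all tested genes. DESeq2 called 4 lower and 1 higher, and 5 had an unadjusted p below 0.05 in edgeR, against 13.3% of all tested genes. Il7r fell from 2.63, 3.47 and 8.59 CPM at day 6 to 0.3595, 0.0948 and 0.809 CPM at day 12 (log2 fold change -3.54 ± 0.59 SE, adjusted p = 0.0039). The receptor for granulocyte colony-stimulating factor, Csf3r, fell too (-1.06 ± 0.22, adjusted p = 0.016). Of 18 integrins and adhesion genes 1 rose (Itgav, 1.48 ± 0.33, adjusted p = 0.032, with overlapping groups) and 1 fell (Itgax). When day 12 replicate 2 was left out, edgeR called 0 phagocytosis and 0 lysosomal genes, and no phagocytosis or lysosomal gene was called lower without replicate 1 of either day or day 6 replicate 2. DESeq2 on all libraries called 7 of the phagocytosis genes and 4 of the lysosomal ones in total.

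The largest fitted rise among the named genes was that of Slco4a1, an organic anion transporter (chr2:180456245-180474867). It had 9.26, 5.95 and 5.96 CPM at day 6 and 444, 1204 and 18.4 CPM at day 12 (log2 fold change 6.30 ± 1.01 SE, adjusted p = 0.005). Replicate 3 was close to the day 6 libraries while replicates 1 and 2 were far above them, so the size of this change depends on the library. Slc5a3, which imports the osmolyte myo-inositol, had 6.38, 11.5 and 11.4 CPM and then 43.3, 226 and 12.2 CPM (log2 fold change 3.26 ± 0.66 SE, adjusted p = 0.019). Its log2 fold change was 1.52, and not called, when day 12 replicate 2 was left out. Cd72, a C-type lectin of leukocytes, had 63.8, 40.7 and 57.8 CPM and then 460.3, 879 and 107 CPM (log2 fold change 3.16 ± 0.52 SE, adjusted p = 0.0055). Nxpe5 had 0.125, 0 and 2.83 CPM and then 19.2, 3.79 and 40.4 CPM, and here replicate 3 was the highest of the day 12 libraries (log2 fold change 4.25 ± 0.81 SE, adjusted p = 0.017).

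Among the largest falls, Eepd1, which encodes a protein with endonuclease and phosphatase domains, went from 60.5, 112 and 62.6 CPM to 22.3, 25.9 and 29.2 CPM (log2 fold change -1.60 ± 0.23 SE, adjusted p = 0.00084). Naip5, the sensor of flagellin in the inflammasome, went from 99.2, 86.3 and 64.4 CPM to 26.2, 21.6 and 40.5 CPM (log2 fold change -1.50 ± 0.23 SE, adjusted p = 0.0012), and Plpp1, a lipid phosphatase, from 46.5, 51.2 and 32.02 CPM to 13.5, 16.96 and 13.6 CPM (log2 fold change -1.56 ± 0.33 SE, adjusted p = 0.017). Genes were named among the largest changes only where their groups did not overlap, so that property is fixed by the naming rule. Ccnd2 (cyclin D2) went from 82.3, 23.7 and 74.6 CPM to 19.7, 16.8 and 13.2 CPM, with day 6 replicate 2 at 23.7 CPM close to the day 12 range (log2 fold change -1.87 ± 0.40 SE, adjusted p = 0.02). The actin-bundling protein gene Fscn1 (-2.01 ± 0.49, adjusted p = 0.04), the collagen chaperone gene Serpinh1 (-1.60 ± 0.36, adjusted p = 0.026), Fgf13, a fibroblast growth factor family member that is not secreted (-1.68 ± 0.42, adjusted p = 0.045), and Pianp (-1.83 ± 0.37, adjusted p = 0.014) fell too. Groups that do not overlap were found for 93 of the 111 genes that rose and for 74 of the 75 that fell, and for 12.8% of all tested genes.

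**Figure D3:**
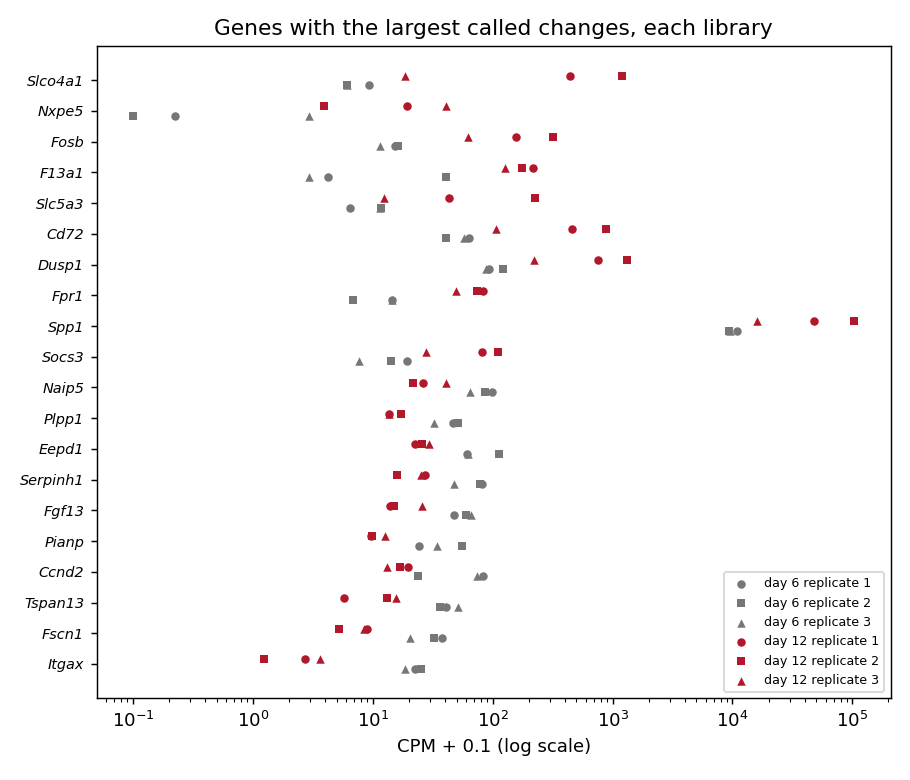
Levels (CPM + 0.1, x axis, log scale) of the 10 genes with the largest rise and the 10 with the largest fall under the naming rule, in each library. Grey symbols are day 6 and red symbols day 12, with circle, square and triangle for replicates 1, 2 and 3; the day 12 values of Slco4a1, Spp1 and Cd72 lie far apart, while those of Eepd1 and Plpp1 lie close together.

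A few called genes were at the detection limit in one group. Summed over the 3 libraries of a group, Chst1 had 0 counts at day 6 and 100 at day 12, so it was at least 30.5-fold higher against a floor of 3 counts over the group, and Lilra5 was at least 20.1-fold and Gda at least 23.5-fold higher. In the other direction Fgr, a kinase of myeloid cells, had 46 counts at day 6 and 0 at day 12, at least 16.8-fold lower, and Amph, a synaptic vesicle protein, was at least 21.5-fold lower. These genes lie outside the naming rule and were chosen because of their counts.

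Metabolic and biosynthetic genes were called in some lists and not in others. Of 32 tested glycolysis and hypoxia genes 2 rose and none fell, as in DESeq2, against 0.74% and 0.5% of all tested genes. In edgeR 8 of the 32 had an unadjusted p below 0.05, against 13.3% of all tested genes. Aldoa, an aldolase, had 831, 833 and 844 CPM at day 6 and 1028, 1326 and 1139 CPM at day 12 (log2 fold change 0.48 ± 0.12 SE, adjusted p = 0.039). The mutase Pgam1 had 52.8, 57.8 and 59.4 CPM and 87.1, 84.8 and 84.5 CPM (log2 fold change 0.59 ± 0.15 SE, adjusted p = 0.045). Both were small changes with tight day 6 values. No member of the list was called higher with no scaling factors, nor without day 6 replicate 1, day 6 replicate 3 or day 12 replicate 2. Xbp1, a transcription factor of the unfolded protein response, rose (0.88 ± 0.18, adjusted p = 0.012) as the single called member of 25. Of 32 ribosomal protein genes 29 had a negative log2 fold change (median -0.72), yet edgeR called none, with 12 at an unadjusted p below 0.05, and DESeq2 called 1, lower. Their summed level was 2913 to 9501 CPM at day 6 and 3521 to 5442 CPM at day 12, so the day 12 range lay within that of day 6. Of the cholesterol synthesis genes, 25 tested, neither edgeR nor DESeq2 called any, and 0 had an unadjusted p below 0.05. Of 34 nuclear-encoded oxidative phosphorylation genes edgeR called 0 (median -0.22, 8 at an unadjusted p below 0.05) and DESeq2 2, lower. Of 28 genes of the response to TGF-beta, a cytokine that sustains microglia, edgeR called 0 (median 0.06, 5 at an unadjusted p below 0.05) and DESeq2 0. Of 13 heat shock genes edgeR called 0 (median 0.26, 4 at an unadjusted p below 0.05, against 13.3% of all tested genes) and DESeq2 1, higher.

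Cell cycle genes were mostly higher at day 12 without passing the test. All 30 mitosis genes had a positive log2 fold change (median 0.71), of which edgeR called 0, with 11 at an unadjusted p below 0.05, and DESeq2 called 1. Of 30 DNA replication genes 28 were positive (median 0.48), edgeR called 0, 9 had an unadjusted p below 0.05 and DESeq2 called 2. The summed level of the mitosis genes was 422 to 656 CPM at day 6 and 599, 601 and 1292 CPM at day 12. Replicates 1 and 2 of day 12 thus lay within the day 6 range, and replicate 3 above it. Mki67, the proliferation marker, had 36.8, 25.8 and 41.9 CPM and 30.7, 40.6 and 87.4 CPM, overlapping (0.60 ± 0.34, adjusted p = 0.47), and Mcm5, a replicative helicase subunit, 32.02, 46.4 and 45.01 CPM and 62.3, 52.7 and 102 CPM, not overlapping (0.81 ± 0.35, adjusted p = 0.29).

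Of 32 type I interferon response genes edgeR called 0 (median 0.11, 2 at an unadjusted p below 0.05) and DESeq2 0. Ifit3 (0.58 ± 0.48, adjusted p = 0.66) and Cxcl10 (0.10 ± 0.58, adjusted p = 0.97) overlapped between the groups. Of 12 MHC class II genes edgeR called 0 (median 0.77, 3 at an unadjusted p below 0.05) and DESeq2 1, higher. Cd74, the invariant chain, had 3.38, 5.58 and 5.17 CPM and 6.11, 14.6 and 6.47 CPM and was not called (0.95 ± 0.48, adjusted p = 0.42). Of 18 MHC class I genes edgeR called 0, with 6 at an unadjusted p below 0.05, and DESeq2 called 1 in each direction.

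Transcripts of other cell types were present, and some moved between the groups. Genes of neural progenitors summed to 302 to 574 CPM at day 6 and to 381 to 393 CPM at day 12. Gfap, the intermediate filament of astrocytes, rose from 4.88, 15.6 and 5.47 CPM to 42.5, 41.7 and 44.6 CPM (log2 fold change 2.31 ± 0.52 SE, adjusted p = 0.025), as the only called member of 12 tested astrocyte genes. The summed level of the 15 astrocyte genes in the table was 136 to 187 CPM at day 6 and 166 to 189 CPM at day 12, overlapping. Pdgfa (1.90 ± 0.42, adjusted p = 0.024), which encodes a growth factor for mesenchymal and oligodendrocyte lineage cells, rose too. Tie1, an endothelial receptor, had 40 counts over the day 6 libraries and 0 over the day 12 libraries, at least 14.6-fold lower, and was the only called member of 9 tested endothelial genes.

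Neuronal genes summed to 61.0 to 94.2 CPM at day 6 and to 29.1 to 52.2 CPM at day 12, without overlap. Of 18 tested neuronal genes 16 were negative (median -0.84), edgeR and DESeq2 called 0, and 4 had an unadjusted p below 0.05. Tubb3 had 6.63, 5.83 and 6.35 CPM and 2.28, 4.64 and 1.21 CPM (-1.20 ± 0.52, adjusted p = 0.3), and the defining glutamatergic genes Slc17a6 and Slc17a7 had 0 counts in the 6 libraries. Fibroblast genes summed to 433 to 1069 CPM at day 6 and 332 to 635 CPM at day 12. Col1a1 was at 239 ± 80.2 and 113 ± 50.1 CPM (SD, n = 3), a log2 fold change of -1.08 ± 0.82 (adjusted p = 0.62). The fibroblast sum was 6.79 to 35.3 CPM in iPSC-derived cells at day 0. In bone marrow-derived cells it was 60.4 to 99.96 CPM at day 6 and 161 to 309 CPM at day 12. Of 18 fibroblast genes tested in the iPSC-derived comparison, edgeR called 0 (2 at an unadjusted p below 0.05) and DESeq2 1, lower. Imprinted genes, which are high in fetal and mesenchymal tissues, summed to 470.4 to 669.8 CPM and then 289 to 349 CPM. Of 18 tested, edgeR called 0 (7 at an unadjusted p below 0.05) and DESeq2 1, lower; H19 had 75.2, 55.8 and 109.6 CPM and 28.4, 30.6 and 29.2 CPM (-1.45 ± 0.51, adjusted p = 0.2). The oligodendrocyte lineage sum was 226 to 494 CPM at day 6 and 189 to 338 CPM at day 12, and 7 of 12 lymphocyte markers, the T cell genes Cd3d, Cd3e and Cd3g among them, had 0 counts. These sums moved in the same direction as the falls of Serpinh1 and Fscn1, genes that mesenchymal and neural cells also express, and their part in those falls was not tested.

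The same interval in bone marrow-derived macrophages was used to see where the iPSC-derived change differed. In those cells 0.52% of the tested genes were called, 0.147% higher and 0.373% lower. Of the 111 genes that rose in iPSC-derived cells 2 rose and 2 fell there, and of the 75 that fell 10 fell there. The test of the difference between the 2 sources called 35 genes, 0.233% of those tested, 29 (0.193%) with a larger log2 fold change in iPSC-derived cells and 6 (0.04%) with a smaller one. Of the 35, 19 were called in the iPSC-derived comparison itself. Among fits that left out 1 iPSC-derived library, the test called 163 genes without day 12 replicate 3, 71 without day 6 replicate 1 and 16 without day 12 replicate 1. Among those that left out 1 bone marrow-derived library it called 8 without day 12 replicate 3, 21 without day 12 replicate 1, and 11, 17 and 19 without day 6 replicates 1, 2 and 3.

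Clec4n changed by 1.73 ± 0.27 in iPSC-derived and -0.88 ± 0.26 in bone marrow-derived cells (difference 2.62 ± 0.38, adjusted p = 0.0019), and Fpr1 by 2.53 ± 0.40 and -0.57 ± 0.36 (difference 3.10 ± 0.53, adjusted p = 0.014). Cxcl2 changed by 3.55 ± 0.76 and -1.23 ± 0.61 (difference 4.78 ± 0.97, adjusted p = 0.038), and Il1rn by 2.28 ± 0.48 and -1.02 ± 0.42 (difference 3.30 ± 0.64, adjusted p = 0.025). C5ar1, Tlr4, Ccl6, Cst7 and Rac2 were also called with positive differences. Aldoa rose in iPSC-derived cells and fell in bone marrow-derived cells, where it changed by -0.69 ± 0.12 (difference 1.16 ± 0.17, adjusted p = 0.0019). Clec4a1 was the other gene called in opposite directions in the 2 sources, with -1.09 ± 0.21 in bone marrow-derived cells.

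On the other side, Ccnd2 fell in iPSC-derived cells (log2 fold change -1.87 ± 0.40) and changed by 1.16 ± 0.39 in bone marrow-derived cells (difference -3.02 ± 0.56, adjusted p = 0.016). Flnc, a filamin of muscle and mesenchymal cells, changed by -1.64 ± 0.45 without being called in iPSC-derived cells and rose by 3.47 ± 0.68 in bone marrow-derived cells (difference -5.10 ± 0.81, adjusted p = 0.0065). For the immediate early genes, edgeR called 0 of 26 in bone marrow-derived cells (median log2 fold change 0.17, 8 at an unadjusted p below 0.05, as were 10.2% of all tested genes, 1 called by DESeq2). Its test of the difference also called 0 of 26, with 13 at an unadjusted p below 0.05, against 11.2% of all tested genes, and 4 called by DESeq2. Fosb had the values 32.8, 17.6 and 22.8 CPM at day 6 and 40.6, 26.5 and 48.6 CPM at day 12 in bone marrow-derived cells, and its difference between sources missed the threshold (3.00 ± 0.66, adjusted p = 0.058). For Siglec1 (1.27 ± 0.29, adjusted p = 0.058), Itgax (-2.21 ± 0.51, adjusted p = 0.058) and Spp1 (2.09 ± 0.55, adjusted p = 0.12) the difference between sources missed it as well.

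**Figure D4:**
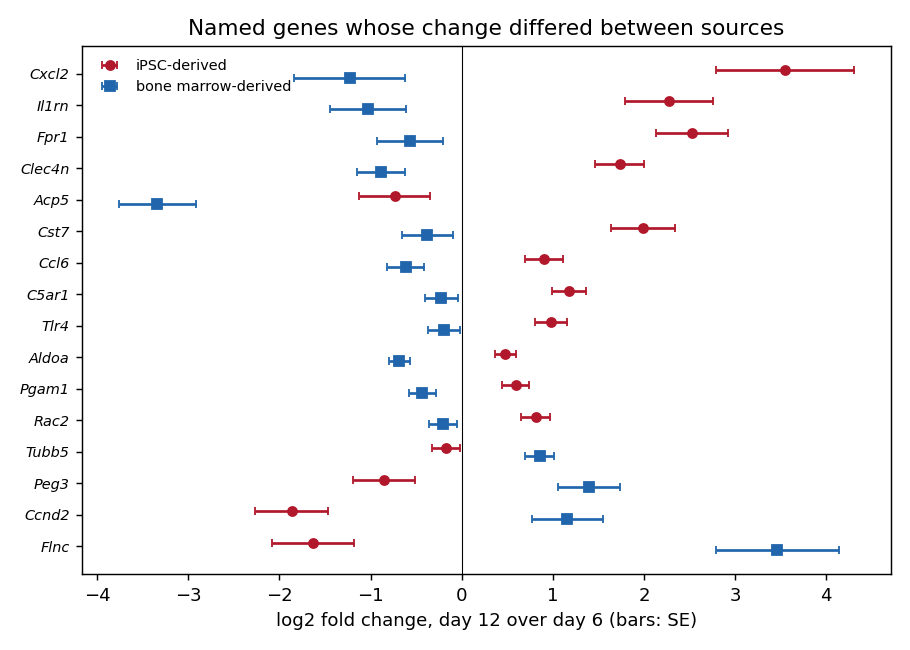
Log2 fold change from day 6 to day 12 (x axis, bars are SE) in iPSC-derived (red circles) and bone marrow-derived (blue squares) macrophages for the 16 named genes whose change differed between the sources. The 12 upper genes have the larger value in iPSC-derived cells and the 4 lower genes, Tubb5, Peg3, Ccnd2 and Flnc, the smaller one.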

How the data were processed

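RNA was measured in 24 libraries, of which 6 enter the comparison. The deposited table holds read counts per gene for 47643 genes. Per the file headers, the authors counted read pairs without a strand setting with featureCounts 1.5.0-p1, so reads from a gene and from an antisense partner cannot be told apart, and near-identical genes may lose reads that map to several places. Per the labels' protocols, libraries were made with SMART-seq v2 from 2 ng of RNA, and per the submitters' processing notes, reads were aligned to mm10 with STAR and counted over GENCODE vM9. Symbols came from the supplied annotation (47224 of 47643 IDs).

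The filter filterByExpr, given the 8 groups, a count of 10 and a total of 15, kept 15000 genes. TMM factors scaled the libraries, and edgeR 4.0.16 (R 4.3.3) fitted 1 robust quasi-likelihood model with 1 coefficient per group to all 24 libraries. Benjamini-Hochberg adjustment was made per contrast. In simulated data the fit recovered 35% of 2-fold and 81% of 4-fold changes, so a gene that was not called can have changed. Of the calls 2.52% were false. Changes were planted only in genes above a minimum level at day 6, so recovery of genes below it was not tested. The simulation gave each gene the same spread in all groups, so it cannot test the pooling where groups differ in spread. P-values rest on the spread between libraries that the series describes as independent replicates. DESeq2 1.42.0 and other scalings, filters and sample sets were alternatives.

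Named genes were the 10 largest called changes in each direction without overlap between the groups and with the higher group averaging 20 CPM or more, predicted genes left out, the 4 called members of each of 43 gene lists with the lowest adjusted p, members called against their list, 39 fixed genes and the 4 largest called differences between sources per direction. Some listed genes are not reported here. The members and lists were chosen with earlier results of these data known. With 0 counts in a group, a floor of 3 counts gives the smallest fold; intervals and floors cover counting error only. Promoters are from RefSeq (GRCm38.p6). Python 3.11.15, pandas 2.3.3 and matplotlib 3.10.9 served for tables and figures.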

Additional observations from a re-analysis of the deposited data

Results flagged for a closer look

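For 16 named genes the change from day 6 to day 12 differed between the 2 sources by the test of the difference itself (edgeR, Benjamini-Hochberg adjusted p below 0.05). The differences, iPSC-derived minus bone marrow-derived log2 fold change, were 4.78 for Cxcl2, 3.30 for Il1rn, 3.10 for Fpr1, 2.62 for Clec4n, 2.60 for Acp5, 2.37 for Cst7, 1.52 for Ccl6, 1.40 for C5ar1, 1.17 for Tlr4, 1.16 for Aldoa, 1.02 for Pgam1 and 1.02 for Rac2. They were -1.02 for Tubb5, -2.25 for Peg3, -3.02 for Ccnd2 and -5.10 for Flnc. Acp5, an acid phosphatase of osteoclasts and macrophages, fell in bone marrow-derived cells (log2 fold change -3.34 ± 0.42), and Tubb5, a beta tubulin, rose there (0.85 ± 0.16), while neither was called in iPSC-derived cells. Peg3, an imprinted gene, was called in neither source (-0.85 ± 0.34 in iPSC-derived and 1.40 ± 0.34 in bone marrow-derived cells).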

How the results depend on the processing

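None of the 186 calls changed direction under any setting run. The genes called (higher and lower) were 435 (225 and 210) with DESeq2, 640 (312 and 328) with no filter on low counts, 5 (2 and 3) with only the 12 iPSC-derived libraries, 0 with only the 6 libraries compared (862 at an unadjusted p below 0.05), and 118 (74 and 44) at a change of at least 2-fold. Leaving out 1 library gave 40 to 484 genes (27 to 254 higher, 13 to 230 lower), of which 33 without day 12 replicate 2 and 170 without day 12 replicate 3 were among the 186. Other scalings and a minimum of 5 CPM gave 169 to 203. With the replicate number as a block within source 194 genes were called, 150 of them among the 186, and with the replicate block and only the 6 libraries 0 (893 at an unadjusted p below 0.05). The numbers were not taken as pairs: same-numbered day 6 and day 12 libraries correlated at -0.04, 0.12 and 0.08 in their deviations from group means. For the immediate early genes, however, replicate 3 had the lowest sum of the iPSC-derived libraries at each day. It was 1720 CPM at day 0, 1200 at day 3, 2562 at day 6 and 4044 at day 12. Whether a shared origin links same-numbered libraries was not tested. Library identifiers ran by replicate across days in iPSC-derived cells and by day in bone marrow-derived cells. What this order stands for was not tested. Immediate early members higher were 16 with no filter, 1 with the 12 libraries, 0 with the 6 libraries, with or without the replicate block, and 2 to 14 with a library left out. For bone marrow-derived cells the count of 78 became 265 with DESeq2, 537 with no filter, 123 with the replicate block and 20 to 39 with a library left out. The 35 differences between sources became 235 with DESeq2, 22 with no scaling factors, 612 with no filter, 72 with the replicate block and 8 to 163 with a library left out. The cause of these shifts was not tested. Leaving out the bone marrow-derived libraries changed 3 things together: the pooled spread, the number of libraries behind it and the genes tested (13530 in place of 15000). Their separate parts were not tested. Depth limits genes of a few counts, for which only floors or wide intervals are given.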
